A study of Mus musculus with 11 samples.

Results

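The genes described here encode 10 proteins of the inner kinetochore, *Cenpn*, *Cenpl*, *Cenpa*, *Cenpc1*, *Cenph*, *Cenpi*, *Cenpk*, *Cenpm*, *Cenpt* and *Cenpw*, of 54146 genes quantified in single mouse embryos at the 8-cell stage. The set was chosen from the fall of *Cenpn* in mutant embryos, and the question was whether the genes of its partners moved with it. The difference in *Cenpn* is therefore given as a description with no test, while the other 9 genes are read from a test fitted across all genes.

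RNA-seq libraries were each made from 1 C57BL/6 embryo taken from the oviduct at E2.5, after natural mating of *Prdm10* heterozygotes. The 5 mutants (MUT, *Prdm10* KO) lacked exon 5 of *Prdm10*, a DNA-binding zinc finger protein, on both alleles, from a null allele that the study made with an ACTB-Cre driver. The 6 controls (CTL) were WT or heterozygous, which the labels do not divide, and all embryos were sorted by detection of exon 5 in their own cDNA. Batch 1 (3 controls, 2 mutants) was pre-amplified with 16 cycles of PCR and batch 2 (3 controls, 3 mutants) with 13. The labels do not say which embryos were littermates, and replicate numbers do not pair them.

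The kinetochore is the protein assembly that joins a chromosome to the spindle. Its inner layer sits on the centromere through most of the cell cycle, on chromatin in which CENP-A replaces histone H3. CENP-N recognises the CENP-A nucleosome, forms a heterodimer with CENP-L, and together with CENP-C, the CENP-H, -I, -K and -M group and the histone-fold pair CENP-T and CENP-W makes the platform on which the microtubule-binding outer layer is built. Cleavage-stage embryos divide repeatedly without growing.

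*Cenpn* (ENSMUSG00000031756.5) lies on the plus strand at chr8:116921730-116941507 (GRCm38). *Cmc2*, which encodes a mitochondrial protein linked to assembly of cytochrome c oxidase, starts on the opposite strand and runs away from it, and 274 bases separate the annotated ends of this divergent pair. The stretch upstream of *Cenpn* (chr8:116921490-116921729, plus strand) is shown because both genes read out from it. It was read from the RefSeq promoter windows of GRCm38.p6, each 250 bases before to 50 bases after a gene's start, and it stops at the base before the annotated start of *Cenpn*. Capitals mark the 197 bases that the windows of *Cenpn* and *Cmc2* share. The printed stretch has 62.5% G or C and 17 CG steps.
*Cenpn* upstream: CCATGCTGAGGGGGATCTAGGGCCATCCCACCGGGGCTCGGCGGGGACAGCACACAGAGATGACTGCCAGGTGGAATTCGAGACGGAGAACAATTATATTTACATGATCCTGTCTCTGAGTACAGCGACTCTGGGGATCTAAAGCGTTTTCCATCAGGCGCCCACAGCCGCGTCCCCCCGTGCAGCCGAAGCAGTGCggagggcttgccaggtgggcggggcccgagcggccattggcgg

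*Cenpn* and *Cmc2* are both in the study's list of PRDM10-bound genes, which was made from other cells. The study tested PRDM10 binding with a probe pair of 28 bases, printed here because its mutated letters hold the fixed letters of the motif searched. Capitals mark the 8 letters at which the pair differs.
WT probe: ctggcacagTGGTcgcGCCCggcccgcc
MUT probe: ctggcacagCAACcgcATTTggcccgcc

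The letters TGGTNNNNNCC, which the WT probe holds, were searched on both strands of the promoter windows. None of the 10 inner kinetochore genes had a match in its window, nor did *Cmc2*, whereas 13.8% of all 32851 windows held one. Among the 577 windows of genes in the study's bound list the share was 34%. Of 39 genes in the kinetochore lists described further on that had a window, 9 held a match. That count is per gene, over 43 windows, while the shares above are per window. Among the 9 was *Cenpp*, a bound gene whose window held the letters in both orientations (minus strand of chromosome 13, GRCm38.p6, capitals mark the match). No match says only that these letters are not in the window.
*Cenpp*, chr13:49652921-49652950: gtgcaatttGGAACGAACCAactcgcagag
*Cenpp*, chr13:49652777-49652806: gctcgagagTGGTCCGTTCCaggagcgcgc

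The windows of the 10 genes held between 10 and 33 CG steps, with a median of 19.5, against a median of 7 over all windows. The windows of the other kinetochore genes had a like median, 22, with a range from 3 to 45. The share of G and C had a median of 54.5% (range 42.3% to 67.7%) against 52.7% over all windows.

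Summed expected counts ranged from 3534735 to 8265840 per embryo, and no pair of embryos within a group agreed within sampling noise. *Prdm10* was listed at 11.1 to 24.8 TPM (a level scaled for transcript length and library total) in controls and 4.88 to 8.16 in mutants, with no overlap. Its normalised counts, 124 to 380.5 in controls and 103.5 to 202 in mutants, overlapped, and its log2 fold change of -0.66 ± 0.26 (SE) was not called (DESeq2 adjusted p = 0.215, edgeR 0.444). Its effective length, which enters the TPM, was 2565 to 3357 bases in controls and 4348 to 5051 bases in mutants. Markers of the 8-cell embryo (*Pou5f1*, *Tfap2c*, *Dppa5a*, *Zfp42*, *Tead4*, *Klf5* and *Cdh1*) were all present, and their summed level was 1650 to 2800 TPM in controls and 2710 to 3370 TPM in mutants. Of 7 markers of cumulus and granulosa cells none had a mean count above 10 and 3 were listed at 0 in every embryo. Their sum reached at most 0.47 TPM in controls and 0.3 TPM in mutants. Of 4 oviduct markers only the secreted *Ovgp1* passed that count, and their sum ranged from 0.29 to 25.1 TPM in controls and from 0.33 to 31.7 TPM in mutants.

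*Cenpn* mRNA was lower in every mutant than in any control. In batch 1 its level was 76.0, 93.1 and 67.6 TPM in control replicates 4, 5 and 6, and 21.5 and 19.9 TPM in mutant replicates 4 and 5. In batch 2 it was 53.05, 55.6 and 36.3 TPM in control replicates 1, 2 and 3, and 16.25, 17.6 and 8.91 TPM in mutant replicates 1, 2 and 3. The groups did not overlap in either batch, and the nearest pair of embryos was control replicate 3 and mutant replicate 4.

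Controls averaged 63.6 ± 19.8 TPM (SD, n = 6) and mutants 16.8 ± 4.87 TPM (SD, n = 5). In normalised counts, which put libraries on a common depth, it was 486 ± 116 and 131 ± 35.1. The log2 fold change with batch as a covariate was -1.83 ± 0.22 (SE), a level 3.56-fold lower in mutants. Each library pooled the blastomeres of 1 embryo, so less mRNA in every blastomere and loss from some of them cannot be told apart.

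The estimates of the fall were close to each other in the 2 batches. The log2 fold change was -1.91 ± 0.29 (SE) in batch 1 alone and -1.77 ± 0.36 in batch 2 alone. The interaction of batch and group was 0.15 ± 0.45 (SE) on the log2 scale, an error that leaves room for a difference between batches. Transcript usage was not part of the choice of the gene. The effective length of *Cenpn* is a transcript length that RSEM corrects for fragment size and weights by isoform. It averaged 1672 ± 14.2 bases over controls (SD, n = 6) and 1652 ± 49.8 bases over mutants (SD, n = 5), and the ranges overlapped. In batch 1 it was 1664 to 1684 bases in controls and 1691 to 1694 in mutants. In batch 2 it was 1656 to 1694 bases in controls and 1571 to 1653 in mutants, so the groups lay apart in opposite directions. No exon of *Cenpn* shares bases with another annotated gene.

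**Figure D1:**
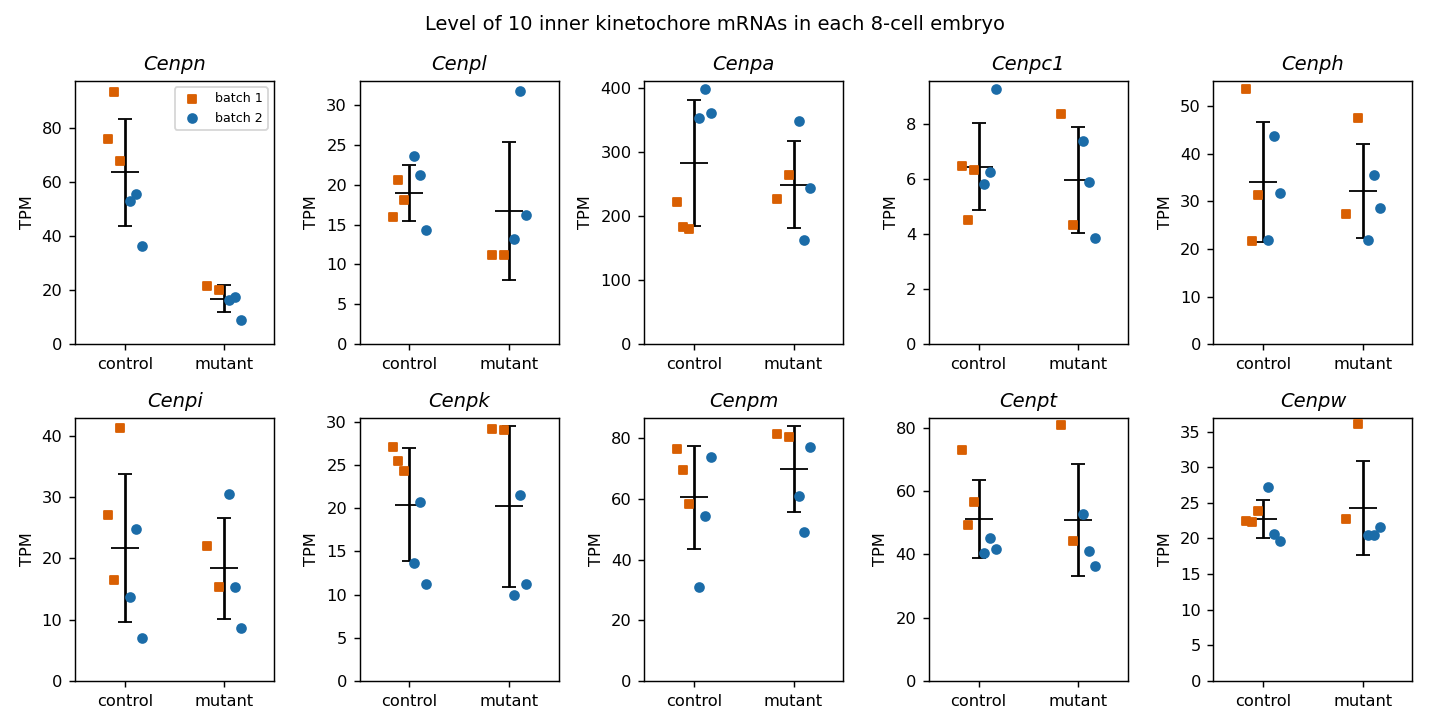
TPM of 10 inner kinetochore genes in each embryo (y axis, each panel from 0) for control and mutant embryos, with squares for batch 1, circles for batch 2 and bars for mean ± SD. The *Cenpn* values of mutants (8.91 to 21.5 TPM) lie below those of controls (36.3 to 93.1 TPM), while the groups overlap in the other 9 panels.

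The 9 partner genes showed no fall of this size. Of the 9, all of which had a mean count above 10, 0 passed the test as lower in mutants and 0 as higher (DESeq2, adjusted p under 0.05), against 0.881% of all genes called lower and 0.565% called higher. With so few members that count is near the background. At an unadjusted p under 0.05 there were 0 of 9, where 11.9% of all genes lie. The quasi-likelihood test of edgeR also gave 0, both at an unadjusted p under 0.05 (9.33% of all genes) and after adjustment (0.306% of all genes).

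The partners' log2 fold changes ran from -0.26 to 0.25, 5 below 0 and 4 above. Their median was -0.05, where the median of all 10448 genes tested was -0.0012. Adjusted p-values (DESeq2) ran from 0.751 to 0.995. The 95% intervals reached no lower than -0.94 and no higher than 0.70. Falls of up to 1.92-fold and rises of up to 1.62-fold in a single partner were thus within the error. No partner's interval held the value of *Cenpn*, which chose the set and serves here as a description only. In normalised counts the groups overlapped for 9 of 9 partners. Over all genes tested, all mutants lay below all controls in 0.632% and above them in 0.287%, so 0 of 9 apart is near the background.

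*Cenpl*, which encodes the partner of CENP-N in the heterodimer, was measured at 23.6, 21.2 and 14.4 TPM in control replicates 1, 2 and 3 and at 13.2, 31.8 and 16.2 TPM in mutant replicates 1, 2 and 3. In batch 1 it was 16.0, 20.6 and 18.1 TPM in controls and 11.2 and 11.1 TPM in mutants. In TPM 3 of 5 mutants lay below all controls, both of batch 1 and mutant replicate 1, but mutant replicate 2 was the highest of all 11 embryos. The log2 fold change was -0.10 ± 0.31 (SE, DESeq2 adjusted p = 0.955), with a 95% interval from -0.70 to 0.51. It was -0.66 ± 0.42 in batch 1 alone and 0.33 ± 0.44 in batch 2 alone. Without mutant replicate 2 it was -0.42, with a DESeq2 adjusted p of 0.622.

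*Cenpa*, the centromeric histone H3 variant, was the most abundant of the set. Its level in batch 2 was 352, 398 and 360 TPM in control replicates 1, 2 and 3, and 349, 162 and 243 TPM in mutant replicates 1, 2 and 3. In batch 1 it was 221, 183 and 180 TPM in controls and 226 and 264 TPM in mutants. On this scale all batch 2 mutants lay below the controls of their batch and both batch 1 mutants lay above the controls of theirs, although in normalised counts the groups of batch 2 overlapped.

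Over both batches *Cenpa* gave a log2 fold change of -0.09 ± 0.22 (SE, DESeq2 adjusted p = 0.94). It was 0.42 ± 0.23 in batch 1 alone and -0.50 ± 0.29 in batch 2 alone. The interaction was -0.92 (DESeq2, unadjusted p = 0.0141) and did not pass adjustment over all genes. Of the 10 inner kinetochore genes 0 passed that interaction test, which called 0.0382% of all genes, and *Cenpa* was the 1 gene with an unadjusted p under 0.05, where 4.3% of all genes lie, so both counts are near the background.

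*Cenpc1*, which encodes CENP-C, the protein that ties CENP-A chromatin to the rest of the inner and outer layers, had the lowest level of the set. It ranged from 4.49 to 9.27 TPM in controls (median 6.30) and was 7.38, 5.89, 3.84, 8.36 and 4.34 TPM in mutant replicates 1 to 5. The ranges overlapped, with mutant replicates 3 and 5 below every control. The log2 fold change was -0.10 ± 0.31 (SE, DESeq2 adjusted p = 0.952).

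The 4 genes of the CENP-H, -I, -K and -M group, a subcomplex that stabilises the inner platform, had values on both sides of 0. *Cenph* averaged 34.02 ± 12.6 TPM over controls (SD, n = 6) and 32.2 ± 9.87 TPM over mutants (SD, n = 5), a log2 fold change of -0.05 ± 0.28 (SE). *Cenpi* varied most among controls for its level, from 7.07 to 41.3 TPM, and was 8.66 to 30.5 TPM in mutants. Its log2 fold change, -0.26 ± 0.35 (SE, DESeq2 adjusted p = 0.867), was the lowest among the partners and had the widest error.

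*Cenpk* and *Cenpm* had log2 fold changes above 0. *Cenpk* was at 11.2 to 27.1 TPM in controls and at most 29.2 TPM (median 21.6) in mutants (log2 fold change 0.07 ± 0.24, SE). *Cenpm* averaged 60.6 ± 16.9 TPM over controls (SD, n = 6) and 70.0 ± 14.2 TPM over mutants (SD, n = 5), and its log2 fold change of 0.25 ± 0.23 (SE, DESeq2 adjusted p = 0.751) was the highest of the set. For both genes the batch 1 mutants lay above all batch 1 controls, and in batch 2 the groups overlapped. Of the exonic bases of *Cenpk*, 4.45% are shared with *Ppwd1* on the opposite strand, and reads from such bases cannot be assigned by strand in these libraries.

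Neither gene of the histone-fold pair was called. *Cenpt* averaged 51.0 ± 12.3 TPM over controls (SD, n = 6) and 50.9 ± 17.7 TPM over mutants (SD, n = 5), with a log2 fold change of 0.01 ± 0.19 (SE, DESeq2 adjusted p = 0.995). *Cenpw* was at 22.7 ± 2.67 TPM in controls and 24.3 ± 6.62 TPM in mutants, with a log2 fold change of 0.13 ± 0.22. Mutant replicate 5, at 36.0 TPM, stood above the other *Cenpw* values, which ran from 19.7 to 27.3 TPM.

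**Figure D2:**
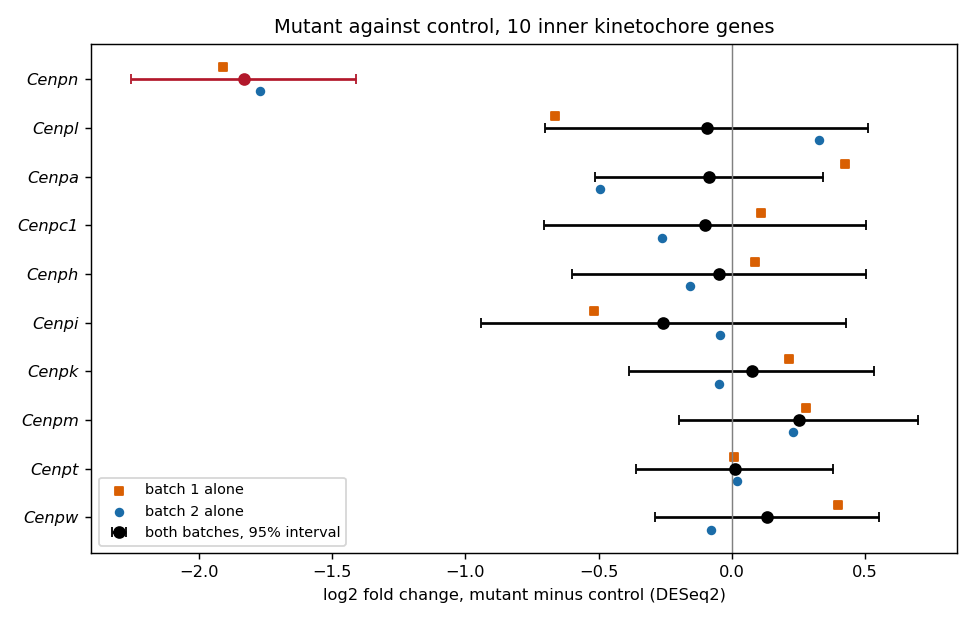
Log2 fold change of mutant minus control embryos (x axis, DESeq2) for 10 inner kinetochore genes, with 95% intervals over both batches and the estimates of batch 1 alone (squares) and batch 2 alone (circles). The intervals of the 9 partners all hold 0. The value and interval of *Cenpn*, whose fall chose the set, are drawn as a description and not as a test.

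The balance of *Cenpn* and its partners was described within each embryo. The ratio of *Cenpn* to *Cenpl* in TPM ran from 2.25 to 4.75 in controls (median 3.18) and from 0.551 to 1.93 in mutants (median 1.23). The mutants' ratios lay below every control's for 7 of 9 partners. The exceptions were *Cenpa* and *Cenpc1*, each with 4 of 5 mutants below all controls. These ratios contain the value that chose the set and are given without a test.

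**Figure D3:**
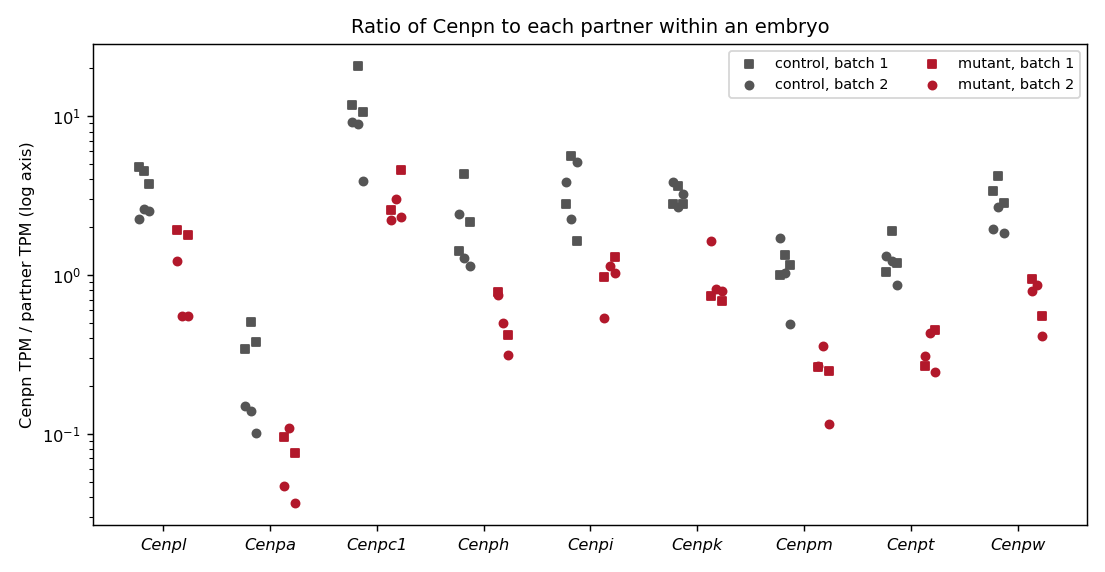
Ratio of *Cenpn* TPM to the TPM of each partner in the same embryo (y axis, log scale), for controls (grey) and mutants (red), with squares for batch 1 and circles for batch 2. With *Cenpl* as the denominator the mutants lie between 0.551 and 1.93 and the controls between 2.25 and 4.75.

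Of the summed TPM of the 10 genes, *Cenpn* made up 11.3 ± 4.47% over controls (SD, n = 6) and 3.36 ± 0.989% over mutants (SD, n = 5). The summed level of the 9 partners was 518 ± 82.2 TPM and 487 ± 72.8 TPM, and the ranges overlapped.

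The order of the levels in controls is a description, since the level of *Cenpn* in controls is part of the difference that chose the set. *Cenpa* led at 282 ± 98.6 TPM (SD, n = 6), above *Cenpn* in 6 of 6 controls with no overlap of the ranges. *Cenpc1* was last at 6.44 ± 1.56 TPM, below *Cenpl* (19.0 ± 3.48 TPM) in 6 of 6 controls, again with no overlap. In between came *Cenpn*, *Cenpm*, *Cenpt*, *Cenph*, *Cenpw*, *Cenpi*, *Cenpk* and *Cenpl*, and the mean difference between neighbours in this order was smaller than its SD except between *Cenpt* and *Cenph* (17.0 ± 9.74 TPM, SD, n = 6). By batch, the mean level of *Cenpn* came at place 2 of 10 in batch 1 controls and place 7 in batch 1 mutants. In batch 2 it came at place 3 among controls and place 9 among mutants.

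Control embryos of the 2 batches were also compared with each other. The batches were handled separately from isolation on and differ in PCR cycles, and these cannot be told apart in that contrast. Of the 10 genes 1 was called, *Cenpa*, which was higher in batch 2 by a log2 fold change of 1.05 ± 0.23 (SE, DESeq2 adjusted p = 0.000265). That contrast called 6.76% of all genes as higher in batch 2 and 7.77% as lower, so 1 of 10 is close to the background. *Cenpn* gave -0.50 ± 0.28 (DESeq2 adjusted p = 0.251).

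Next to *Cenpn*, its divergent neighbour *Cmc2* (ENSMUSG00000014633.15, chr8:116888685-116921455, minus strand, GRCm38) was also lower in mutants. It measured 74.2, 43.25 and 58.7 TPM in control replicates 1, 2 and 3, and 58.3, 61.4 and 43.5 TPM in control replicates 4, 5 and 6. In mutant replicates 1 to 5 it measured 11.7, 46.0, 28.2, 22.3 and 30.2 TPM. Mutant replicate 2 overlapped with the 2 lowest controls in TPM, whereas in normalised counts all mutants lay below all controls.

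The log2 fold change of *Cmc2* was -1.09 ± 0.29 (SE), 2.12-fold lower, with a DESeq2 adjusted p of 0.0209 and a 95% interval from -1.65 to -0.53. The edgeR adjusted p was 0.228. The DESeq2 call was lost without control replicate 1 (adjusted p = 0.0906), control replicate 3 (0.056), mutant replicate 3 (0.066) or mutant replicate 4 (0.134), while the log2 fold change stayed between -1.32 and -0.93. It was -1.05 in batch 1 alone and -1.11 in batch 2 alone, and neither passed adjustment.

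The other 3 genes whose bodies lie within 50 kb of that of *Cenpn*, none of them in the bound list, were not called. *Atmin*, a zinc finger factor of the DNA damage response, starts 1.89 kb past the end of *Cenpn*, 21.7 kb from its start, and gave 0.11 ± 0.27 (SE, DESeq2 adjusted p = 0.939). *Gcsh*, a glycine cleavage system gene, gave -0.01 ± 0.16 (DESeq2 adjusted p = 0.99), and *1700030J22Rik*, with a mean normalised count of 17.4, gave 0.40 ± 0.69. By DESeq2 the fall was thus measured at both genes of the divergent pair and was not detected at the genes downstream of *Cenpn*.

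**Figure D4:**
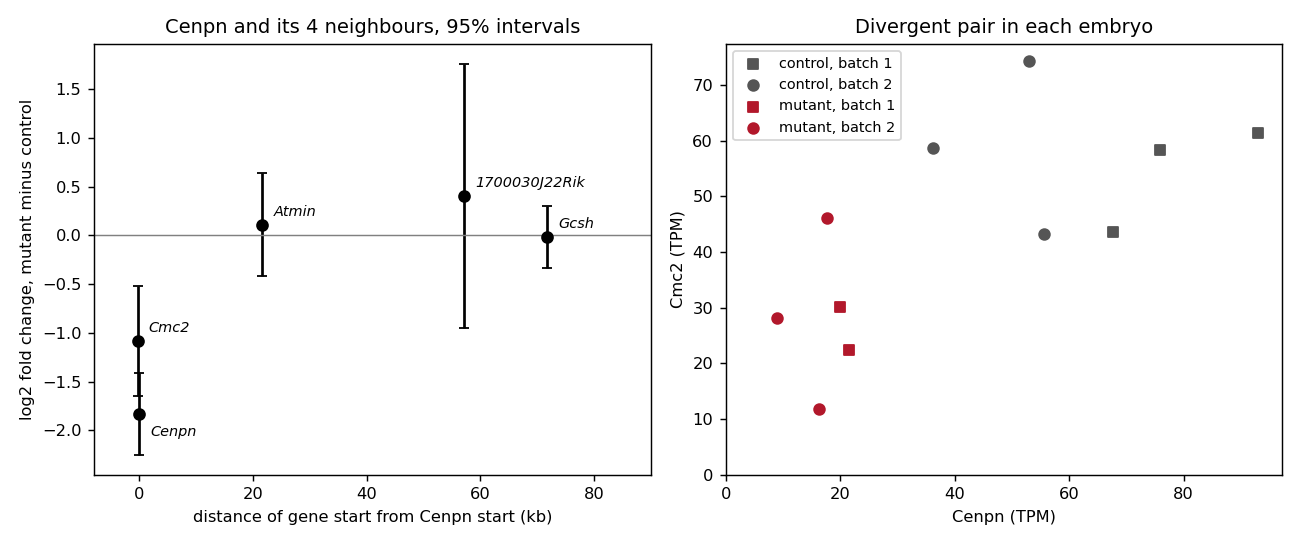
Left, log2 fold change of mutant minus control (y axis, DESeq2, 95% intervals) against the distance of each gene's start from that of *Cenpn* in kb. Right, TPM of *Cmc2* against TPM of *Cenpn* in each embryo, where mutants (red) lie to the left of all controls (grey) and mutant replicate 2, at 46.0 TPM of *Cmc2*, reaches the height of the lowest controls.

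Beyond the 10 genes, 47 genes of 5 kinetochore lists were read from the same test. They were the remaining subunits of the inner layer, the CENP-A deposition factors with CENP-B, and the KMN network of the outer layer that binds microtubules. The last lists were the corona and spindle checkpoint with the SKA proteins, and the chromosomal passenger complex with the shugoshins and PLK1. Each list is named below by its main members. Of the 45 tested, 0 were called in either direction by DESeq2 or by edgeR. The shares over all genes were 0.881% lower and 0.565% higher by DESeq2 and 0.306% by edgeR, so a count of 0 is near the background. The other 2, *Itgb3bp* and *Cenpb*, had mean normalised counts of 5.75 and 2.52, below the minimum of 10.

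At an unadjusted p under 0.05, DESeq2 found 4 of the 45 list genes, against 11.9% of all genes, and edgeR found 3, against 9.33%. The 4 were all lower in mutants, a direction that 6.2% of all genes had at this threshold, so these counts are near the background. These 4 are named because the count is small and were picked after their values were seen. *Spc25*, an NDC80 complex subunit, was at 40.0 to 75.3 TPM in controls and 17.1 to 54.3 TPM in mutants (log2 fold change -0.83 ± 0.27, SE, DESeq2 adjusted p = 0.0984). It passed adjustment without control replicate 4 (DESeq2 adjusted p = 0.0268) or mutant replicate 4 (0.0198).

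*Cenpp*, of the remaining inner subunits, was at 21.2 to 39.2 TPM in controls and 16.6 to 23.9 TPM in mutants (-0.58 ± 0.23, DESeq2 adjusted p = 0.233). *Oip5*, a subunit of the Mis18 complex that primes CENP-A deposition, gave -0.49 ± 0.24, and *Sgo1*, which protects centromeric cohesion, gave -0.46 ± 0.22. Their groups overlapped.

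By list, the median log2 fold change was -0.19 over 6 tested inner subunits outside the set, -0.01 over 7 deposition factors, -0.16 over 10 KMN genes, -0.08 over 14 corona and checkpoint genes and -0.10 over 8 passenger and shugoshin genes, beside -0.0012 over all genes. In all, 32 values were below 0 and 13 above, whereas the median over all genes lay close to 0, and this tilt was not tested. Of the 7 embryo markers given above, 1 was called, *Klf5*, a trophectoderm-associated factor, at 0.84 ± 0.14 (SE, DESeq2 adjusted p = 1.07e-06). Over all genes 0.565% were called higher by DESeq2, and 1 call among 7 markers is too few to read further. The other 6 did not pass (DESeq2 adjusted p from 0.123 to 0.896), all 7 log2 fold changes were above 0, and the summed levels of the groups overlapped. The part of these markers in the values above and in that of *Cenpn* was not tested.

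None of the most abundant genes of each list passed adjustment. In the inner layer these were *Cenpx* (75.5 ± 20.4 TPM in controls, SD, n = 6) at 0.32 ± 0.25 and *Cenps* at 0.27 ± 0.22, both of the histone-fold CENP-S and CENP-X pair. Among deposition factors *Npm1*, a histone chaperone of the nucleolus, gave -0.01 ± 0.13 and *Rbbp7*, a histone-binding protein, gave -0.01 ± 0.32. In the outer layer *Dsn1* gave -0.12 ± 0.15 and *Ndc80* -0.09 ± 0.12.

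Checkpoint genes *Mad2l1* (145 ± 36.5 TPM in controls, SD, n = 6) and *Bub3* gave -0.42 ± 0.22 and -0.14 ± 0.22. The passenger genes *Birc5*, which encodes survivin, and *Cdca8*, which encodes borealin, gave -0.20 ± 0.18 and 0.04 ± 0.18.

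**Figure D5:**
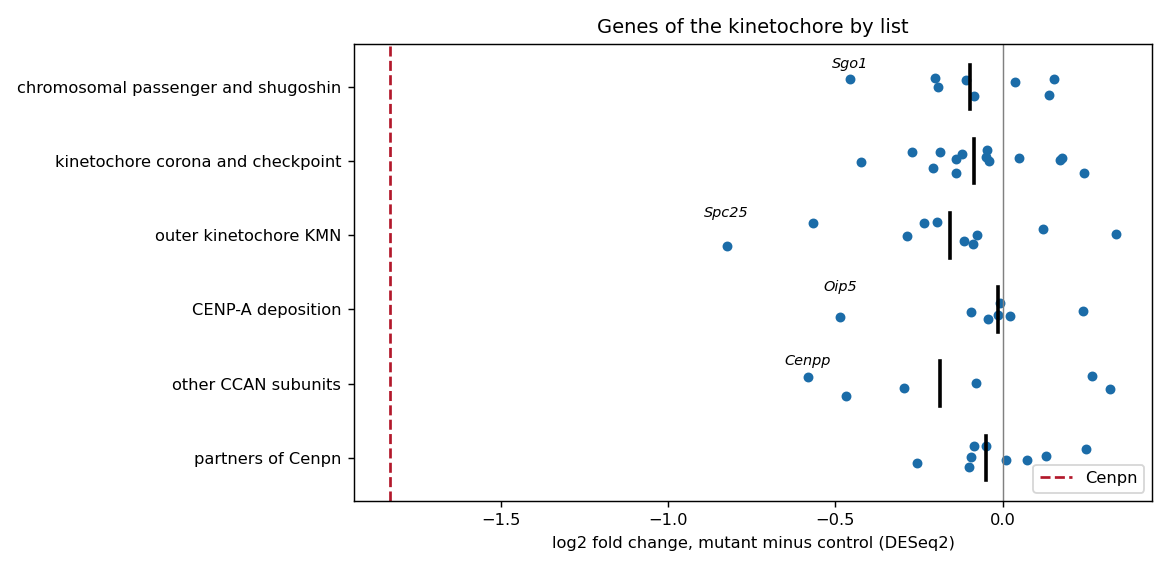
Log2 fold change of mutant minus control (x axis, DESeq2) for each tested gene of the 9 partners and 5 kinetochore lists (rows), with a bar at each list's median and a dashed line at *Cenpn*. Named points had an unadjusted p under 0.05, and the lowest of them, *Spc25* at -0.83, lies to the right of *Cenpn* at -1.83.

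Of the 57 genes in the set and the lists, 4 were in the study's bound list, namely *Cenpn*, *Cenpp*, *Cenpe* and *Hjurp*. *Cenpe*, a kinesin motor of the corona, averaged 85.5 ± 25.6 TPM over controls (SD, n = 6) and 95.9 ± 23.2 TPM over mutants (SD, n = 5), a log2 fold change of 0.18 ± 0.15 (DESeq2 adjusted p = 0.719). *Hjurp*, the chaperone that deposits CENP-A, was at 18.4 ± 7.29 and 19.8 ± 7.34 TPM, a log2 fold change of 0.24 ± 0.27 (DESeq2 adjusted p = 0.821). Neither these nor *Cenpp* passed adjustment.

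The genes whose log2 normalised counts ran most like *Cenpn* over the 11 embryos, among 5537 genes with a mean count above 100, were *Ube2a* (Pearson's r = 0.945), *Rnasek* (0.909), *Eef1d* (0.904), *Selenoh* (0.898) and *Eif3b* (0.895). All 5 were called lower in mutants by DESeq2, so the group difference is part of what the points share, along with library and depth. *Cenpc1*, with a mean count of 82.7, was not ranked. Of the partners ranked, the most like *Cenpn* on this measure was *Cenpi* (r = 0.418, rank 704), and *Cenpl* ranked 2171 (r = 0.095).

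With the batch and group means removed, the leading genes were *9530068E07Rik* (r = 0.916), *Sept7* (0.902) and *Dr1* (0.898). Among the same partners, again without *Cenpc1*, *Cenpi* (0.558), *Cenpl* (0.485) and *Cenpk* (0.431) were the highest, and *Cenpm* was the lowest, at -0.647. Only 11 embryos stand behind each value, and the ranking is a description.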

How the data were processed

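Per the labels and the methods, reads were aligned to GRCm38.p6 with STAR (2.6.0c) and quantified with RSEM by the authors. The deposited table of each of 11 embryos holds the RSEM expected count, in which reads shared between genes are divided, the deposited TPM, which is scaled to 1 total per library, and the effective length. The authors' comparison table (DESeq2 1.22.2, with fold changes and p-values) was not used. The libraries are unstranded and carry no molecular identifiers, so precision from counts covers counting error only.

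Symbols and positions came from GENCODE vM21. Expected counts were rounded and fitted with the DESeq2 (version 1.42.0, R 4.3.3) Wald test, the model holding terms for batch and for group, and with edgeR (4.0.16) and limma (3.58.1) as alternatives. A gene was called at baseMean (mean normalised count) above 10 and Benjamini-Hochberg adjusted p under 0.05, over all genes. The fits were tested on simulated data. TPM was used for levels between genes, and normalised counts for overlap unless TPM is stated. Intervals are 95% normal intervals of the DESeq2 estimate. p-values rest on each model's estimate of the spread between embryos, which are taken as independent although littermates are not labelled.

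The genes, the lists and the tests were chosen with earlier results of these data known. Genes named were the 10 genes, *Prdm10*, genes whose bodies lie within 50 kb of that of *Cenpn*, the 2 most abundant, the bound and any called genes of each list, and the 5 and 3 genes most like *Cenpn*. *Spc25*, *Oip5* and *Sgo1* fell outside this rule and were named after their values were seen, as were *Itgb3bp* and *Cenpb*, which were not tested, and the marker *Klf5*. Every inner kinetochore gene had at least 45 expected counts in every embryo. All 10 had a RefSeq window. Protein sequences were not used here.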

Additional observations from a re-analysis of the deposited data

Results flagged for a closer look

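Of 22 sets of TPM values (10 inner kinetochore genes and *Cmc2*, in controls and in mutants), 2 had 1 embryo far from the others of its group by Dixon's criterion, which chance alone meets in about 1 of 20 sets. *Cenpl* in mutant replicate 2 was 31.8 TPM, where the other mutants were at most 16.2 TPM. *Cenpw* in mutant replicate 5 was 36.0 TPM, where the other mutants were at most 22.8 TPM. Without mutant replicate 2 the log2 fold change of *Cenpl* was -0.42 (DESeq2 adjusted p = 0.622), and without mutant replicate 5 that of *Cenpw* was -0.05 (DESeq2 adjusted p = 0.998).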

How the results depend on the processing

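No paired analysis was possible because replicate numbers follow only the order of the samples and carry no pairing. The count of 0 of 9 partners called held under all alternatives, namely edgeR, limma on log2(TPM + 1), other factors and filters, no batch term, single batches, and each embryo left out. No partner changed its call, although *Cenph* and *Cenpt* had the other sign in 5 of 20 alternatives each, *Cenpc1* in 4, *Cenpl* in 3, *Cenpa*, *Cenpk* and *Cenpw* in 2, and *Cenpi* and *Cenpm* in 0. *Cenpn* stayed between -1.95 and -1.70. In the kinetochore lists the count of 0 rose to at most 1 (*Spc25*) with an embryo left out (range 0 to 1). Over all genes 151 were called, against 51 with no batch term, 78 in batch 1 alone, 48 in batch 2 alone, 32 with edgeR, 22 with limma, and 90 (without mutant replicate 2) to 265 (without control replicate 2) with an embryo left out; it was 91 without mutant replicate 5. The interaction count of 4 ranged from 0 to 22 with an embryo left out and was 0 with edgeR. The contrast of control batches called 1498 genes, 729 with edgeR and 673 to 1499 with an embryo left out. *Cmc2* kept its direction in 20 of 20 alternatives and its call in 10. The cause of these shifts was not tested.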
